A study of Sus scrofa with 6 samples.

Results

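Homeobox transcription factors, with the HOX genes as their best known family, were followed from pig fibroblasts into the induced pluripotent stem cells made from them. Members were taken by gene symbol: the HOX clusters and the PAX, LHX, DLX, NKX, IRX, MEIS, PBX, EMX, POU, PITX, PRRX, ALX, GBX, EN, MSX, TSHZ, ZEB, ZFHX, ZHX and SIX-type families, leaving out PAX3, LHX2 and MSX1. This gave 83 genes of the 25322 gene IDs in the table, 28 of them in the HOX clusters. All 83 are called homeobox genes here by their symbol, whether or not each holds a full homeobox. Genes of these families without a symbol match are not analysed here. The cells came from the Small Xiang Pig (Sus scrofa) and formed 3 groups of 2 libraries: the progenitor fibroblasts (PEF) at passage 5, Rex1+ piPSCs at passage 5 (P5) and Rex1- piPSCs at passage 10 (P10). Both piPSC groups descend from PEF, and the sample labels name neither the reprogramming factors nor a treatment, nor how many animals or lines were used. Passage and Rex1 state change together between P5 and P10 and cannot be told apart.

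The homeobox encodes a DNA-binding fold shared by transcription factors that give cells their position and identity in the embryo. HOX genes lie in 4 clusters, where genes with low paralog numbers act towards the head and genes with high numbers towards the tail, and cultured fibroblasts are known to keep the HOX code of the body site they came from. TALE proteins of the PBX and MEIS families bind DNA together with HOX proteins. PAX, LIM, POU, SIX-type and NK families pattern the nervous system, sense organs, kidney and muscle.

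Each gene had 1 deposited value per group, in FPKM (fragments per kilobase of gene scaled to the mapped fragments of the library), so no spread between libraries could be set against any difference, and none was tested. Differences are between values of log2(FPKM + 1), and a gene is called higher or lower where that difference is at least 1, which understates the change of low genes. Of the 83 genes, 58 reached an FPKM of 1 in at least 1 group and were compared, and 12 of those reached it in 1 group alone. Another 25 stayed below 1 in every group, with 0.865 as their highest value, and 5 of these were listed at 0 throughout.

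The labelled cell types were checked against marker genes. The 9 fibroblast markers with a row, of 11 listed, had a summed FPKM of 3060 in the PEF column, 107 in that of P5 and 20.1 in that of P10. The pluripotency markers LIN28A and DNMT3B, the only 2 of 9 with a row, summed to 1.90, 458 and 229, and Rex1 itself was not analysed. In P10 minus P5 the log2 difference of DNMT3B was -2.66 (159 and 24.4 in P5 and P10). That of LIN28A was -0.55 (299 and 204). Neural markers, 7 of 8 with a row, summed to 70.5, 422 and 1009. STMN2 was the largest part of that sum in P5 and P10, at 252.5 and 594. NES, at 27.8, 16.7 and 27.2, was the only one of the 7 not called higher than PEF in either piPSC group. Epithelial markers, 6 of 6, summed to 9.91, 1514 and 1351. Most of each sum came from KRT8 and KRT18, whose log2 differences in P10 minus P5 were 0.21 and -0.30, under the call. The other 4 markers were all lower in that comparison: CLDN4 (-3.80), EPCAM (-2.59), CDH1 (-2.48) and ESRP1 (-1.59). Over all 6 the median difference was -2.04, so the level sum of P10 does not describe most of these markers. Endothelial markers, 3 of 5, summed to 2.81, 18.6 and 3.21, and immune markers, 5 of 5, to 4.24, 2.15 and 4.44, with PTPRC at 0 in PEF and P10 and CSF1R at 0 in PEF and P5. Skeletal muscle markers, 4 of 5, summed to 732, 8.45 and 8.48, with DES at 727 in PEF. In bulk RNA, fewer cells of a type and less RNA per cell cannot be told apart. The fibroblast marker sum alone had the order of the HOX sum below, highest in PEF and lowest in P10. The neural sum had the reverse order, and the remaining sums had neither. The part of the marker sums in the group differences below was not tested.

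The summed level of the HOX genes with a symbol was lower in the piPSCs than in the fibroblasts, and lowest in P10. The summed FPKM of the 28 HOX genes was 156 in PEF and 82.2 in P5. It was 33.4 in P10, which is 21.4% of the fibroblast sum, and the P5 sum was 52.7% of it. Over all IDs the summed FPKM in P5 was itself 76.6% of that in PEF, and in P10 100.6%. In PEF 19 of the 28 reached an FPKM of 1, in P5 15 and in P10 7. The HOXB cluster was the largest part of the fibroblast sum, at 80.9, and stood at 21.2 in P5 and 3.30 in P10. HOXC genes summed to 20.4, 3.88 and 2.89, and HOXA genes to 33.8, 22.6 and 6.81. The HOXD sum did not follow that order: it was 21.0 in PEF, 34.5 for P5 and 20.4 for P10. In P10 the HOXB sum was 4.08% of that in PEF and the HOXD sum 97.3%, while the fibroblast marker sum was 0.656% of that in PEF. In P5 these percentages were 26.3%, 165% and 3.51%.

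**Figure D1:**
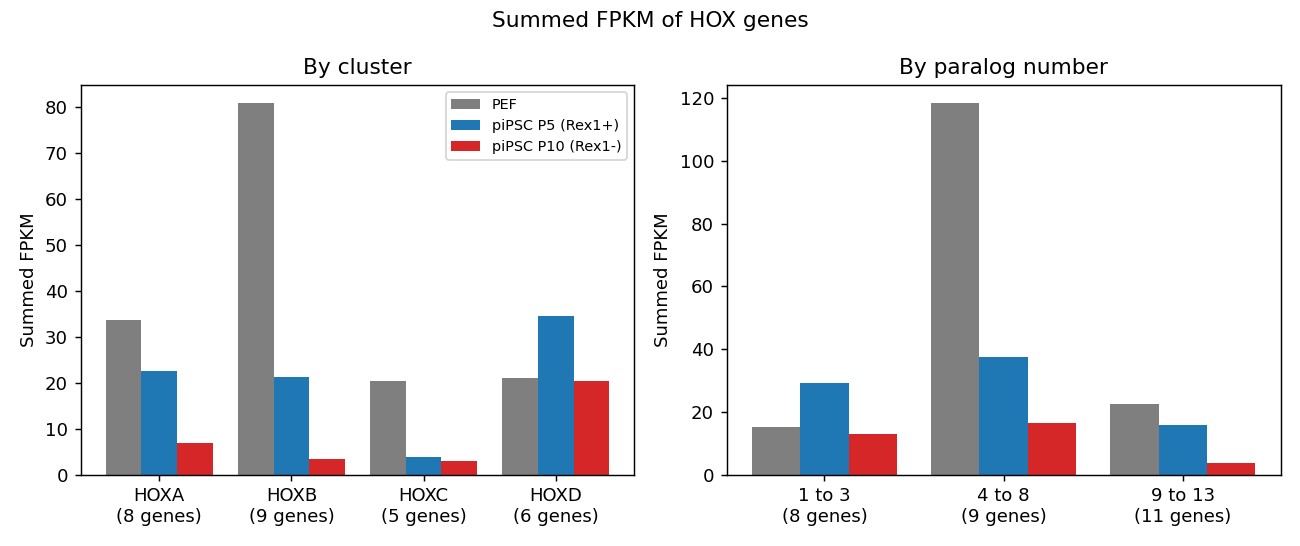
Summed FPKM (linear axis from 0) of the HOX genes with a row, by cluster on the left and by paralog number on the right, with 1 bar per group and no error bars because each gene has 1 value per group. HOXB genes and paralogs 4 to 8 hold most of the PEF sum of the genes with a symbol, and the HOXD bar is highest in P5.

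Paralog number split the genes in another way. The 8 HOX genes of paralog numbers 1 to 3 had sums of 15.1 in PEF, 29.1 in P5 and 13.03 in P10. The 9 genes numbered 4 to 8, which pattern the trunk, summed to 118, 37.4 and 16.5. The 11 genes numbered 9 to 13, which act in the lumbar, sacral and tail regions and in the limbs, summed to 22.7, 15.7 and 3.85. Among genes with a symbol, the PEF sum was thus largest for numbers 4 to 8, and of these 3 sums that of numbers 1 to 3 alone was higher in P5 than in PEF. An ID without a symbol in the HOXC span, described below, was at 100.2 in PEF and is in none of these sums, so the order of the 3 PEF sums could change with it. Another in the HOXD span was at 22.3 in PEF and 44.4 in P5. Which of the sums are higher in P5 than in PEF could therefore change too.

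Among the trunk genes, HOXB6 (ENSSSCG00000017539, susScr3 chromosome 12, 24871088 to 24873383) was the highest HOX gene with a symbol in PEF. Its FPKM was 32.8 there, 1.54 in P5 and 0.0960 in P10, so the P5 value was 21.2 times lower than that of PEF. Its log2 difference was -3.73 in P5 minus PEF and -4.94 in P10 minus PEF, both against the same PEF value. HOXA5 (chromosome 18, 50062879 to 50065910), which acts in lung and cervical to thoracic skeletal patterning, was at 17.9, 3.24 and 0.187. HOXB7 was at 15.7, 2.70 and 0.411, and HOXB8, known in the mouse for roles in blood progenitors and microglia, at 10.9, 0.957 and 0.0959. All 4 were highest in PEF and lowest in P10. HOXC6 (chromosome 5, 19694505 to 19696302), a thoracic and forelimb-level gene, was at 15.7 in PEF and at 2.91 and 1.93 in P5 and P10. HOXB5 was at 3.43 and 0.393 and was listed at 0 in P10. HOXB4, known for expanding blood stem cells when supplied from outside, was at 10.2, 4.49 and 0.549. HOXA7 stood apart from these neighbours, at 7.73 in PEF, 8.96 in P5 and 1.95 in P10: it was low in P10 alone.

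HOXD4 was the exception among paralogs 4 to 8. This hindbrain and cervical gene (ENSSSCG00000015984, chromosome 15, 91420235 to 91421548) stood at 3.99 in PEF, 12.3 in P5 and 11.3 in P10. Its log2 differences against PEF were 1.41 and 1.30. It was the highest HOX gene with a symbol in both piPSC groups. Its cluster neighbour HOXD3 (chromosome 15, 91436908 to 91440055) was at 1.70, 9.52 and 6.12. HOXA2, which sets the identity of the hyoid arch and acts in the hindbrain (chromosome 18, 50104200 to 50106016, a locus shared by 2 IDs), was at 0.772, 6.09 and 3.67. These 3 were the HOX genes called higher than PEF in both piPSC groups, and all 3 are known for roles in the hindbrain or upper neck.

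The other low-numbered HOX genes behaved differently from HOXA2 and HOXD3. HOXB3 was at 5.20 in PEF, 5.24 in P5 and 0.803 in P10, with HOXB2 at 2.63, 4.54 and 1.02. Their log2 differences in P10 minus P5 were -1.79 and -1.45. HOXA3, a gene of the thymus and parathyroid region, was at 3.28, 1.72 and 0.598. HOXD1 was near an FPKM of 1 at most, at 1.05, 0.459 and 0.533, and was called in no comparison. HOXB1, a gene of 1 hindbrain segment, was listed at 0 in PEF and was at 0.518 in P5 and 0.0654 in P10, so it did not enter the comparison.

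Among the high-numbered HOX genes, HOXD10 and its neighbour HOXD9 went different ways. HOXD10, a lumbar and limb gene (chromosome 15, 91385313 to 91387717), was at 9.29 in PEF, 1.41 in P5 and 0.265 in P10. HOXD9 (chromosome 15, 91391335 to 91393578) was at 3.61, 10.9 and 2.17, with log2 differences of 1.37 in P5 minus PEF and -1.91 in P10 minus P5. HOXD9 thus had its highest value in P5 alone, and its P10 value was below that of PEF with a difference of -0.54, under the call. HOXC10, active in the hindlimb, was at 4.57, 0.976 and 0.838, and HOXA11, needed for the forearm and lower leg in the mouse, at 3.19, 0.800 and 0.0560. HOXD12 was at 1.31 in PEF and listed at 0 in P5 and P10. HOXA10, HOXB13, HOXC11 and HOXC13 stayed below 1 in every group, and HOXA9 and HOXC12 were listed at 0 in all 3. The locus named HOXA9 lies outside the stretch of the other HOXA genes, so its 0 may not describe that gene. An ID without a symbol between HOXA10 and HOXA7, ENSSSCG00000016700, was at 8.14 in PEF, 13.3 in P5 and 1.49 in P10. Which gene it is was not settled.

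**Figure D2:**
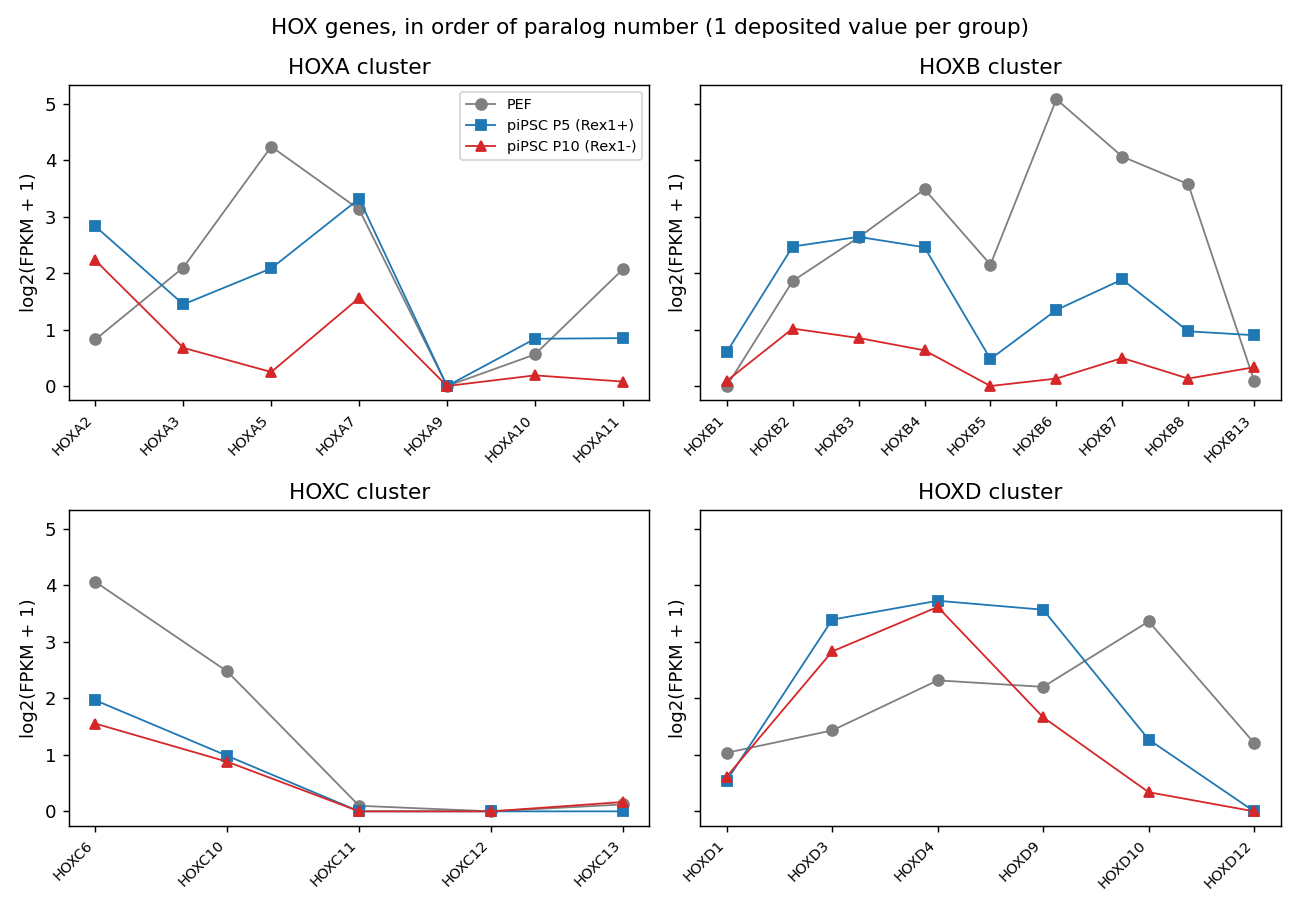
Level of 27 HOX genes, as log2(FPKM + 1), in order of paralog number within each cluster, with 1 point per group and no error bars because each gene has 1 value per group. The PEF points peak in the middle of HOXA and HOXB, at HOXA5 and HOXB6, while the P5 and P10 points lie above PEF at HOXA2, HOXD3 and HOXD4.

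Positions are those of the table, which does not state whether starts count from 0 or from 1. In these coordinates the HOXB genes run HOXB1 to HOXB4 and then HOXB8 back to HOXB5. The HOXC genes run HOXC12, HOXC13, HOXC10, HOXC11 and HOXC6, also out of number order. HOXA9 lies outside the stretch that holds the other HOXA genes. The position of an ID between named genes therefore does not settle which gene it is. Within the spans of the 4 clusters lay 15 IDs with no symbol, of which 5 reached an FPKM of 1, and they are not counted among the members. The highest of them, ENSSSCG00000021974, between HOXC10 and HOXC11, was at 100.2 in PEF, 6.48 in P5 and 11.1 in P10. ENSSSCG00000015983, between HOXD9 and HOXD4, was at 22.3, 44.4 and 27.2. The cluster sums above are therefore sums over the genes with a symbol, not over whole clusters.

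Against the background of all genes, the lower HOX calls were the ones that stood out in number. In P5 minus PEF, 11 of the 28 HOX genes were lower, which is 52.4% of the 21 compared, beside 19.6% of all 13998 compared IDs. In that comparison 4 HOX genes were higher, 19.0% of the 21, beside 21.4% of all IDs, a share near the background. In P10 minus PEF, 14 were lower (66.7%, beside 19.3%) and 3 were higher (14.3%, beside 19.1%). In P10 minus P5, 8 were lower (38.1%, beside 8.48%) and 0 were higher, beside 7.57%. The median log2 difference over the 21 was -1.03, -1.60 and -0.77 in the same order, beside 0.09, 0.06 and -0.05 over all compared IDs. The first and second of these comparisons share the PEF column. A HOX gene that passed the filter through PEF alone had to be lower elsewhere or close to the filter, so these shares describe the genes and are no test.

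**Figure D3:**
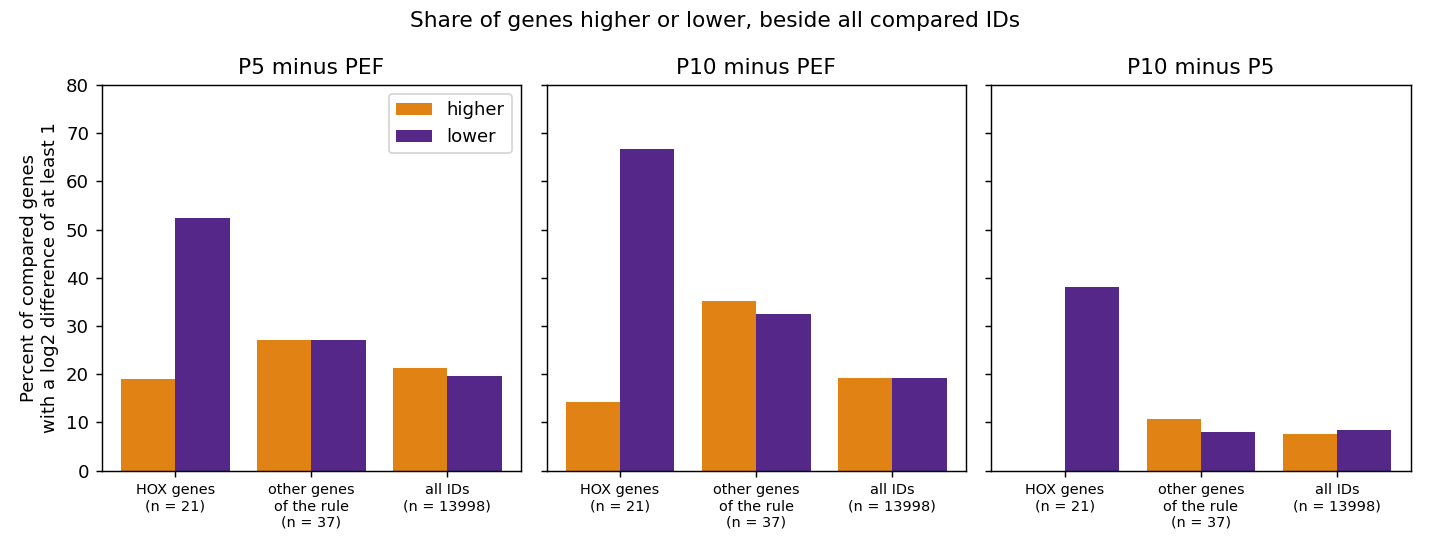
Percent of compared genes with a log2 difference of at least 1, higher or lower, in each comparison, for the 21 HOX genes, the 37 other genes of the rule and all 13998 IDs compared. The HOX bar for lower genes reaches 52.4%, 66.7% and 38.1%, and no HOX gene was called higher in P10 minus P5.

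Over all 83 members, of which 58 were compared, 14 were higher and 21 lower in P5 minus PEF (24.1% and 36.2% of the 58, beside 21.4% and 19.6% of all IDs). In P10 minus PEF 16 were higher and 26 lower (27.6% and 44.8%, beside 19.1% and 19.3%), and in P10 minus P5 4 and 11 (6.90% and 19.0%, beside 7.57% and 8.48%). The higher shares in P5 minus PEF and P10 minus P5 were near the background. Outside the HOX clusters the calls were balanced. Of those 55 genes, 37 were compared, with 10 higher and 10 lower in P5 minus PEF (27.0% each), 13 higher and 12 lower in P10 minus PEF, and 4 higher and 3 lower in P10 minus P5. The shares in P5 minus PEF and in P10 minus P5, the latter 10.8% and 8.11%, lie near the background given above, and those in P10 minus PEF were 35.1% and 32.4%. Their median differences were 0.07, 0.24 and 0.02.

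The HOX cofactors PBX2 and PBX3 were well above an FPKM of 10 in all 3 groups. PBX2 (ENSSSCG00000001438, chromosome 7, 28043511 to 28047552), a broadly expressed HOX cofactor, was at 50.2 in PEF, 92.4 in P5 and 88.2 in P10. PBX3 was at 29.4, 24.8 and 43.3. Neither was called in any comparison, while the summed HOX level was lower in P5 and P10. PBX4 was at 2.15, 4.31 and 6.48, a log2 difference of 1.24 in P10 minus PEF. MEIS2 stayed near 1, at 0.886, 1.40 and 1.20.

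The Iroquois genes, which also belong to the TALE class, diverged from each other. IRX3 (chromosome 6, 28168073 to 28170875), a factor of the neural tube and of the heart's conduction system, was at 20.3 in PEF, then 76.5 and 117.9. It was the highest gene of the whole set in P10, with log2 differences of 1.87 and 2.48 against PEF. IRX4, known for the ventricles of the heart, was at 37.1, 6.98 and 14.2, so it was highest in the fibroblasts. IRX6 was at 3.33, 2.80 and 6.24 and was not called.

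The mesenchymal factors PRRX2 and PAX1 had some of the largest differences of the set. PRRX2 (chromosome 1, 303720887 to 303770893), a factor of limb and craniofacial mesenchyme, was the highest member in PEF at 104.2 and stood at 1.11 in P5 and 1.78 in P10, with log2 differences of -5.64 and -5.24. PAX1, a factor of the sclerotome that forms vertebrae, and of the pharyngeal pouches, was at 12.3 in PEF and listed at 0 in P5 and P10 (chromosome 17, 33372513 to 33381323). An exact 0 can be a failed estimate in such a table, so no fold is given. PAX9, its close relative, stayed below 1 in all groups, at 0.229, 0.465 and 0.144.

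Of the SIX-family genes, whose proteins work with EYA partners in muscle, kidney and sense organ precursors, 3 of 4 were highest in the fibroblasts. SIX4 (chromosome 1, 210783237 to 210792607) was at 13.3 in PEF, 3.17 in P5 and 1.56 in P10. SIX2, known for keeping kidney progenitors, was at 3.19, 1.79 and 0.364. Both had the order PEF, P5, P10, with SIX4 at log2 differences of -1.78 and -2.48 against PEF. SIX6, an eye and pituitary gene also on chromosome 1, had the other pattern, at 0.0561, 1.77 and 0.244, and reached an FPKM of 1 in P5 alone.

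The partners of SIX-family and LIM proteins listed beside them did not share that order. Of 15 listed, 8 had a row and were compared: 5 were higher and 0 lower in P5 minus PEF (62.5%, beside 21.4% of all IDs higher and 19.6% lower), and 4 and 0 in P10 minus PEF (50.0%, beside 19.1% and 19.3%). EYA2, a SIX-family coactivator, was at 3.40, 5.93 and 14.4, and DACH1, a corepressor of the same network, at 1.34, 14.3 and 13.2. LMO1, a LIM-only protein, was listed at 0 in PEF and was at 8.88 and 15.3. LDB1, which bridges LIM proteins, was level at 31.9, 30.3 and 30.2.

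Of the 8 zinc finger homeobox genes, 3 were lower in P5 (37.5%, beside 19.6% of all IDs) and 4 in P10 (50.0%, beside 19.3%) than in PEF. In both comparisons 0 were higher, beside 21.4% and 19.1% of all IDs. ZEB1 (chromosome 10, 46547259 to 46794724), a repressor of epithelial genes, was at 81.8 in PEF, 16.4 in P5 and 30.1 in P10. Its log2 differences were -2.25 and -1.41 against PEF, and 0.84 in P10 minus P5, under the call. The epithelial marker CDH1, a known target that ZEB1 represses, was at 0.103, 48.7 and 7.89. TSHZ1 was at 11.8, 3.62 and 2.67, and TSHZ3, known in the mouse for ureter smooth muscle, at 9.91, 2.04 and 2.08. ZHX1 was at 35.4, 18.3 and 16.1, with a difference of -1.09 in P10 minus PEF. ZFHX4 was at 15.8 in PEF, 7.81 in P5 and 16.9 in P10, so P5 was its low point, with 1.02 in P10 minus P5. ZFHX3 (9.08, 10.7 and 7.30), ZHX2 (7.09, 7.50 and 12.9) and TSHZ2 (2.28, 0.752 and 1.90) were called nowhere.

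Factors known from neural development were among the genes higher in the piPSCs. POU3F3 (ENSSSCG00000022096, chromosome 3, 52014455 to 52015651), a factor of neural progenitors and cortical neurons, was at 1.58 in PEF, then 12.9 and 32.5. Its log2 differences were 2.43 and 3.69 against PEF and 1.26 in P10 minus P5. PAX6, a regulator of the eye, forebrain and spinal cord (chromosome 2, 31485150 to 31508162), was at 7.58, 24.7 and 31.0. POU4F1, a factor of sensory neurons, was at 0.0635 in PEF and 3.07 in both P5 and P10, and POU3F1, found in the epiblast and in Schwann cells, at 0.0386, 1.09 and 1.66. POU2F3, known from tuft cells and skin, was at 0.0124, 0.806 and 1.07. The broadly expressed POU2F1 differed little, at 5.97, 9.08 and 7.08, and POU6F1 was at 2.68, 2.20 and 5.07. In these groups the neural marker sum, of which PAX6 is a part, was also higher, and its part in these differences was not tested.

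The 3 LIM genes compared went both ways. LHX1 (chromosome 12, 40068031 to 40074500), a factor of the head organizer, kidney and spinal interneurons, was listed at 0 in PEF and stood at 1.88 in P5 and 7.68 in P10. Its log2 difference in P10 minus P5 was 1.59. LHX5, a close relative active in the forebrain and spinal cord, was listed at 0 in PEF and was at 2.02 and 1.43. LHX9, a gonad and limb gene, was at 2.95, 0.291 and 0.0183. LHX4, LHX6 and LHX8 stayed below 1 in every group.

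Genes of the midbrain and hindbrain boundary also differed between the groups. EN1, a midbrain and hindbrain boundary gene that is also active in dermal fibroblasts of the mouse (chromosome 15, 28042611 to 28046935), was at 1.98 in PEF, 1.64 in P5 and 7.66 in P10. Its log2 difference in P10 minus P5 was 1.71. GBX2, which acts on the hindbrain side of that boundary, was at 0.0241, 2.54 and 1.32, and PAX2, also of the boundary and of the kidney, at 0.609, 1.76 and 2.79. EN1 was highest in P10 and GBX2 in P5. NKX1-2, a gene of the posterior growth zone of the embryo, was listed at 0 in PEF and was at 3.58 and 2.01. NKX6-1, of the ventral neural tube and pancreatic beta cells, was at 1.06, 1.88 and 1.40 and was called nowhere. DLX2, of the branchial arches and forebrain interneurons, was at 2.35, 0.309 and 0.310.

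The remaining members were near or at 0. PAX4, POU4F2 and POU4F3 were listed at 0 in all groups, and POU1F1, POU3F4, PITX3, EMX1, NKX2-3, NKX2-4, NKX2-6, NKX2-8, DLX1 and DLX3 stayed below 1. POU1F1, the pituitary factor, was at 0.0749 in PEF and listed at 0 in P5 and P10. DLX1 and DLX3 came closest to 1, at 0.860 and 0.709 in P10. NKX2-6, POU4F2 and PAX9 lie at loci shared with another ID.

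**Figure D4:**
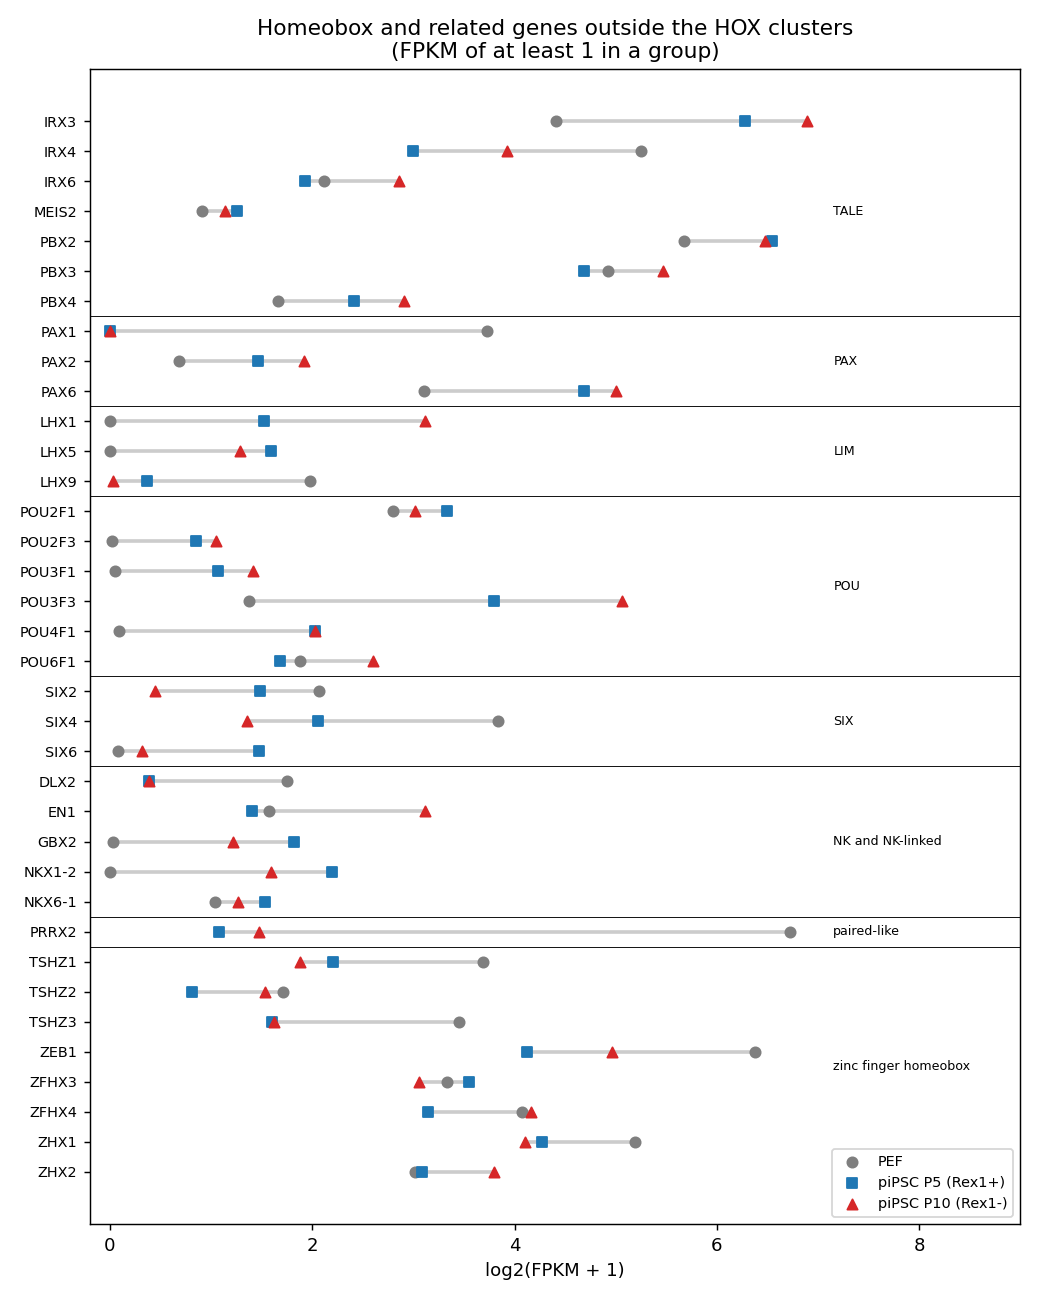
Level as log2(FPKM + 1) of 36 compared genes outside the HOX clusters, 1 row per gene, grouped by class, with 1 point per group joined by a grey line and no error bars because each gene has 1 value per group. PRRX2, SIX4, PAX1 and ZEB1 have PEF at the far right, while POU3F3, PAX6, IRX3 and LHX1 have P10 there.

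In P10 minus P5, calls were fewer than against PEF among the members and among all IDs alike. The 4 members higher in P10 were LHX1, EN1, POU3F3 and ZFHX4. The 11 lower ones included HOXA5, HOXA7, HOXB2, HOXB3, HOXB4, HOXB6, HOXB7 and HOXD9 together with SIX2 and SIX6. With quantile normalization the split was 7 higher and 11 lower, beside 1186 and 1208 of all 13998 compared IDs. HOXA5, at -1.84, and HOXD9 had the largest differences of the lower genes in P10 minus P5, together with HOXB4 at -1.83.

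Against PEF, homeobox genes that the symbol rule does not take leaned to the higher side, where the 58 compared members leaned to the lower. Of 57 listed, 43 had a row and 22 were compared. In P5 minus PEF 11 were higher and 5 lower (50.0% and 22.7%, beside 21.4% and 19.6% of all IDs). In P10 minus PEF 10 were higher and 6 lower (45.5% and 27.3%, beside 19.1% and 19.3%). Their median log2 differences were 1.27 and 0.57, beside -0.19 and -0.35 over the 58 members, and the difference between the lists was not tested. Over the 37 compared members outside the HOX clusters these medians were 0.07 and 0.24. In P10 minus P5 the list did not lean higher, with 4 higher and 5 lower (18.2% and 22.7%, beside 7.57% and 8.48%). The median difference of the list was -0.23 there. RAX, ISL1 and BARHL2 reached an FPKM of 1 in P5 alone, TLX1 and VSX1 in P10 alone, and BARX1 in PEF alone. A gene that passes the filter through 1 group alone is bound to be highest there. These shares, like those of the other lists, therefore describe the genes and are no test. LMX1A, of the midbrain and roof plate, and OTX2, of the epiblast and anterior brain, had the largest differences of the list, at 7.17 and 5.61 in P10 minus PEF. The FPKM of LMX1A was 0.113, 21.7 and 158.8 and that of OTX2 0.312, 49.7 and 63.0, in the order PEF, P5, P10. SATB1, a chromatin organizer, was at 0.754 in PEF, 19.8 in P5 and 17.8 in P10. BARX1, of stomach and facial mesenchyme, was at 16.3, 0.752 and 0.0950, and SHOX2, of the limb, at 14.0, 3.11 and 1.57. CDX4, which acts upstream of trunk HOX genes, was listed at 0 in PEF and was at 4.83 in P5 and 1.41 in P10. TGIF1, a TALE corepressor, was at 58.1, 30.9 and 77.4.

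Genes known to act on HOX expression were followed as a further list, of which 36 of 42 had a row and 35 were compared. In P5 minus PEF 11 were higher and 7 lower (31.4% and 20%, beside 21.4% and 19.6% of all IDs), so the lower share was at the background. In P10 minus PEF 9 were higher and 3 lower (25.7% and 8.57%, beside 19.1% and 19.3%), and in P10 minus P5 4 and 6 (11.4% and 17.1%, beside 7.57% and 8.48%). Among chromatin genes, EZH2, the Polycomb methyltransferase that helps to silence HOX clusters, was at 11.02 in PEF, 55.9 in P5 and 51.4 in P10. Its partners SUZ12 (15.7, 22.2 and 16.7) and EED (10.4, 14.3 and 10.6) were not called. KMT2A, a methyltransferase that maintains HOX expression, was at 25.6, 11.8 and 23.6. Among retinoid genes, the receptor gene RARG was at 43.4, 7.57 and 6.12, and CYP26B1, an enzyme that degrades retinoic acid, at 16.3, 0.362 and 0.0800. The related enzyme gene CYP26A1 was listed at 0 in PEF and was at 4.32 and 1.52. Genes of the retinoid pathway therefore differed in both directions between the groups.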

How the data were processed

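RNA was sequenced from 6 libraries in 3 groups. The submitters' processing notes name the tools TopHat2 2.0.9 and Bowtie2 2.0.6 and the build susScr3. The authors deposited FPKM, per the file headers, with 1 column for each group. Not given in the sources used here are the FPKM program and the way the libraries of a group became 1 value, so values carry no SD and no n. Symbols were joined by gene ID and matched 11804 of 25322 IDs (46.6%). Members and lists were chosen with earlier results of these data known.

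Differences of log2(FPKM + 1) were computed over the 13998 IDs that reached an FPKM of 1 in any group, in Python 3.11.15 with pandas 2.3.3, and called at 1. The calculation was checked on simulated data. No test was run. The rule named every gene reaching an FPKM of 1; some genes it took are not reported here but enter the counts and sums. Those under 5 and called nowhere could be summarised, and those are mostly given too. Of the other lists, a few members are named as examples, chosen after their values were seen. Alternatives were other pseudocounts, filters, scalings and thresholds. Median scaling moved the median of all compared IDs in P10 minus PEF by 0.12. Depth is unknown, but the commonest ratio among IDs under 0.15 put P5 at 0.730 and P10 at 1.43 times the depth of PEF, from 16 of 589 and 20 of 678 IDs sharing it within 0.01 on the log2 scale.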

Additional observations from a re-analysis of the deposited data

How the results depend on the processing

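No paired analysis was possible because the table holds 1 column per group, and for the same reason no library could be left out. Counts are given in the order P5 minus PEF, P10 minus PEF, P10 minus P5. With a pseudocount of 5, higher homeobox genes numbered 4, 4 and 1 and lower ones 13, 15 and 2; higher HOX genes numbered 1, 0 and 0 and lower ones 6, 7 and 2. All IDs then gave 1416, 1249 and 444 higher and 1826, 1762 and 434 lower. With a log2 difference of at least 2, homeobox genes gave 2, 3 and 0 higher and 11, 12 and 0 lower, and HOX genes 0, 0 and 0 higher and 6, 8 and 0 lower. All IDs gave 946, 945 and 171 higher and 1096, 1086 and 203 lower. With a mean FPKM of at least 5, homeobox genes gave 6, 5 and 2 higher and 11, 13 and 7 lower. HOX genes then gave 3, 2 and 0 higher and 5, 6 and 6 lower. All IDs gave 1784, 1505 and 648 higher and 2060, 1990 and 718 lower under that filter. The median of the homeobox genes in P10 minus PEF was then -1.09. These settings shrink differences, ask for larger ones or keep fewer genes by construction. With a pseudocount of 0.1, P10 minus P5 had 8 higher and 18 lower homeobox genes, and 0 higher and 14 lower HOX genes. All IDs then gave 1666 higher and 1752 lower in that comparison. Quantile normalization gave 7 higher and 11 lower homeobox genes in P10 minus P5, beside 1186 higher and 1208 lower over all IDs. The counts of homeobox, HOX and all genes moved by at most 1.5 times with no filter, with median and trimmed-mean scaling, without IDs listed at 0 and without IDs sharing a locus.

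Of 92 called differences of single members, 0 changed sign under any of the 10 alternatives that kept the gene. Other pseudocounts, filters and thresholds cannot change a sign. Only median scaling, trimmed-mean scaling and quantile normalization could have done so. A pseudocount of 5 ended 53 calls. Median scaling ended those of HOXB4 in P5 minus PEF (-0.94) and ZHX1 in P10 minus PEF (-0.94), and trimmed-mean scaling those of POU3F1 in P5 minus PEF (0.98) and SIX2 in P10 minus P5 (-0.99). Quantile normalization ended 5: POU3F1 in P5 minus PEF (0.81) and ZHX1 (-0.83), PAX2 (0.91), GBX2 (0.9996) and POU2F3 (0.85) in P10 minus PEF. The cause was not tested. Values under an FPKM of 1 rest on an unknown number of fragments, and differences between such values, as among HOX genes in P10, cannot be graded.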
